A study of Mus musculus with 4 samples.

Results

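The phagocyte NADPH oxidase is a membrane enzyme that moves electrons from NADPH across the membrane to oxygen and so makes superoxide, which macrophages and neutrophils use against ingested microbes. The genes described here encode 5 of its subunits, Cybb, Cyba, Ncf1, Ncf4 and Rac2. They were taken by symbol from the deposited table, where each matched 1 of 55414 listed genes. The RNA came from mouse peritoneal macrophages, which are macrophages from the abdominal cavity, after 24 h in culture with LUP at 0.5 mg/ml (2 libraries) or with complete medium as vehicle (2 libraries). The labels do not spell out LUP, and they give no strain, sex or age of the mice. They also do not say whether replicates were separate animals or cultures, so p-values measure the spread between these libraries, which may be technical.

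In the resting phagocyte the enzyme is unassembled. Cybb (gp91phox, also called NOX2) and Cyba (p22phox) form the membrane cytochrome, in which Cybb carries the flavin and the hemes that pass the electrons and Cyba stabilizes Cybb and docks the cytosolic parts. On stimulation the cytosolic subunits, among them Ncf1 (p47phox, the organizer) and Ncf4 (p40phox, which binds a phosphoinositide of the phagosome membrane), move to the cytochrome together with the GTP-bound form of a Rac GTPase. Loss of the oxidase causes chronic granulomatous disease. In macrophages the genes of Cybb and Ncf1 are known as targets of the transcription factor PU.1 and of interferon-induced factors.

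The proximal promoters of the members are shown because the 3 that could be printed differ in the letters they hold near the start of transcription. They come from RefSeq on mouse build GRCm38.p6 and run from 170 bases before the annotated start to 30 bases after it, 5′ to 3′ in the direction of the gene. The table matched Cybb, Cyba and Ncf1. Ncf4 and Rac2 are named only. Capitals mark matches, on either strand, to the motifs GAAANNGAAA (core of the interferon-stimulated response element), TTCNNNGAA (gamma-activated site), GAGGAA (a purine-rich core bound by PU.1), CCAAT (a box bound by nuclear factor Y) and GGGCGG (the box bound by Sp1).
Cybb, chrX:9469295-9469494, minus strand: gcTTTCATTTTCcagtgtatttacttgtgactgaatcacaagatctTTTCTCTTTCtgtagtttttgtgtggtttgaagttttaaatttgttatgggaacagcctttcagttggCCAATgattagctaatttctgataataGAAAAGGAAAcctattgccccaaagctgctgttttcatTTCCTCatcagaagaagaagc
Cyba, chr8:122432911-122433110, minus strand: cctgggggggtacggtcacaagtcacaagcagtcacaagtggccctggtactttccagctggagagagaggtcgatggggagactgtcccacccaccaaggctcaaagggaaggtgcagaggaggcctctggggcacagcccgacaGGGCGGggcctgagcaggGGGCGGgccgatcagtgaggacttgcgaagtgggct
Ncf1, chr5:134229596-134229795, minus strand: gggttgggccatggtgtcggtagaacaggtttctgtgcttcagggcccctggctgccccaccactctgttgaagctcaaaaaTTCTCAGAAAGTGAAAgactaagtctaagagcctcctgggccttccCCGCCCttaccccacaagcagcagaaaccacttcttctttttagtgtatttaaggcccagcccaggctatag

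The Cybb window held 3 matches to GAAANNGAAA, beginning 168, 124 and 29 bases before the start, 1 CCAAT and 1 GAGGAA core that begins 10 bases into the transcript. The Ncf1 window held 1 match to GAAANNGAAA, beginning 82 bases before the start and overlapping the only TTCNNNGAA match of the 3 windows, and 1 GGGCGG. The Cyba window held GGGCGG at 2 places and none of the other 4 motifs, and its GC content was 64.5%, against 35.5% for Cybb and 52.5% for Ncf1. Of 32851 windows of the same length in the table, which lists some genes more than once, 2.17% held GAAANNGAAA, 5.44% TTCNNNGAA, 19.2% GAGGAA, 29% CCAAT and 32% GGGCGG. A match to these letters does not show that a factor was bound, and no binding was measured here.

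The libraries held between 22460913 and 23617618 expected counts with LUP and between 19949818 and 23172691 with vehicle. A subunit gene rested on 2573 to 75296 of these in a library. The LUP replicates differed by a chi-square of 3.50 for each degree of freedom and the vehicle replicates by one of 2.67, so that no library repeated another. By edgeR's quasi-likelihood test at an adjusted p under 0.05, 3621 of the 13355 genes tested (27.1%) were higher with LUP and 3164 (23.7%) lower. The higher genes thus made up 53.4% of calls, against 41.4% after quantile normalization with limma, a setting that changed both the scaling and the test. The median log2 change of all genes was -0.07 there.

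All 5 subunit genes rose with LUP, where 27.1% of all genes tested did, and none fell. In TPM, a level per transcript length, both LUP libraries lay above both vehicle libraries for each of the 5, as they did for 27.6% of all genes tested. Their median log2 change was 0.99, beside -0.00 over all genes tested. The sizes of the rises were unequal, from 4.75-fold for Cybb, the catalytic subunit, to 1.35-fold for Cyba, its partner in the membrane. Because the RNA is from whole cultures, more cells that express a gene and more RNA of it per cell cannot be told apart.

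Cybb stood at 1013 and 954 TPM in the LUP libraries and at 222 and 221 TPM in the vehicle libraries. The lowest LUP library was thus 4.30 times the highest vehicle library. The fitted log2 change was 2.25 (SE 0.0355, edgeR adjusted p = 9.93e-20), larger than that of 97.4% of the genes tested, and only 6.37% of all genes tested were called with a rise of 2-fold or more. Its counts were whole in every library, to within 0.001, so that none had been shared out with another gene.

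Cyba was the most abundant subunit mRNA in every library, at 2967 and 3203 TPM with LUP and at 2488 and 2404 TPM with vehicle. By mean TPM it ranked 31 among the genes tested. Its groups did not overlap, but the gap between them was small. The fitted change was 1.35-fold (log2 0.44, SE 0.0435, edgeR adjusted p = 8.37e-08). Relative to its size this change was moved more by scaling than those of the other subunits, with a log2 change of 0.27 after quantile normalization (limma adjusted p = 1.68e-05).

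**Figure D1:**
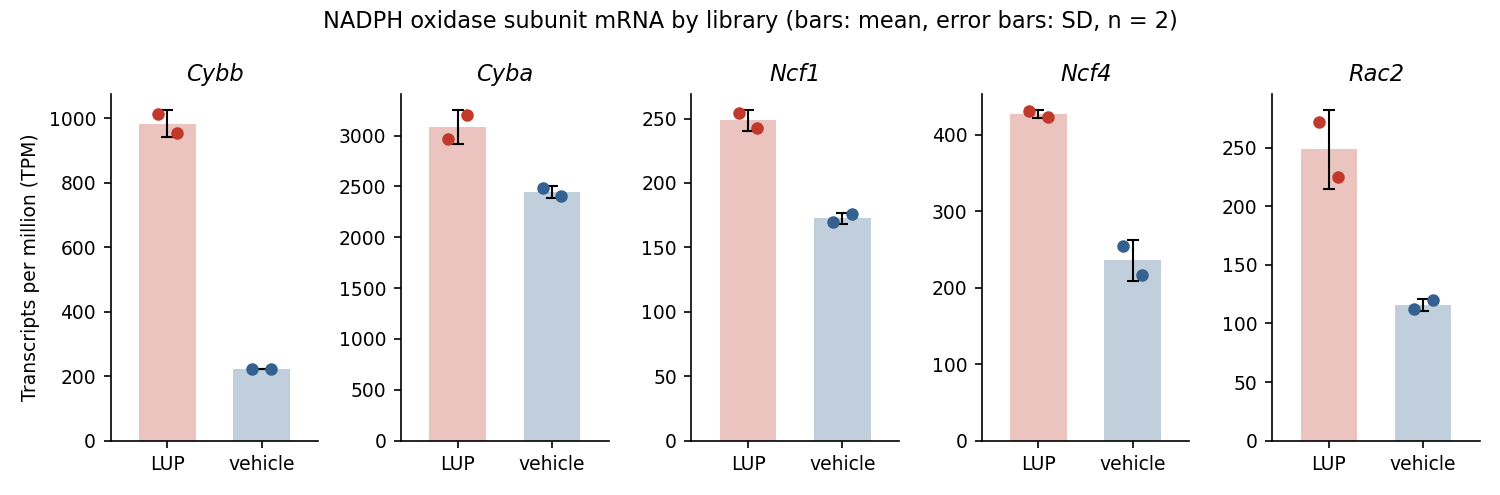
TPM (vertical axis, from 0, with its own scale for each gene) of the 5 oxidase subunit genes in the LUP libraries (red) and the vehicle libraries (blue). Points are single libraries, bars are means of 2 libraries and error bars are SDs. Both LUP points lie above both vehicle points for every gene, with the widest gap for Cybb (984 TPM with LUP and 222 TPM with vehicle on the mean).

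Among the cytosolic subunits, Ncf1, which carries the PX and SH3 domains that the table's Pfam annotation lists for it, stood at 254 and 243 TPM with LUP and at 169.6 and 176 TPM with vehicle. The groups were separated by more than either pair of replicates differed. Its rise was 1.54-fold (log2 0.63, SE 0.0371, edgeR adjusted p = 4.31e-11).

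Ncf4, annotated there with PX, SH3 and PB1 domains, stood at 431 and 423 TPM with LUP and at 255 and 217 TPM with vehicle. The vehicle libraries were further apart than the LUP libraries, and the gap between the groups was wider than either. Ncf4 rose 1.99-fold (log2 0.99, SE 0.0483, edgeR adjusted p = 2.09e-12), on counts that were whole in every library.

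Rac2, the Rac GTPase largely restricted to blood cells, stood at 272 and 225 TPM with LUP and at 112 and 119.7 TPM with vehicle. The LUP libraries differed 1.21-fold in TPM, the widest replicate gap among the subunits, although they held nearly the same share of reads, 289 and 286 CPM (counts scaled to library size). The vehicle libraries held 129 and 133 CPM. Rac2 rose 2.24-fold (log2 1.17, SE 0.0397, edgeR adjusted p = 9.36e-15). Cyba, Ncf1 and Rac2 had counts that were not whole in some libraries, so a part of their reads had been divided with other genes.

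**Figure D2:**
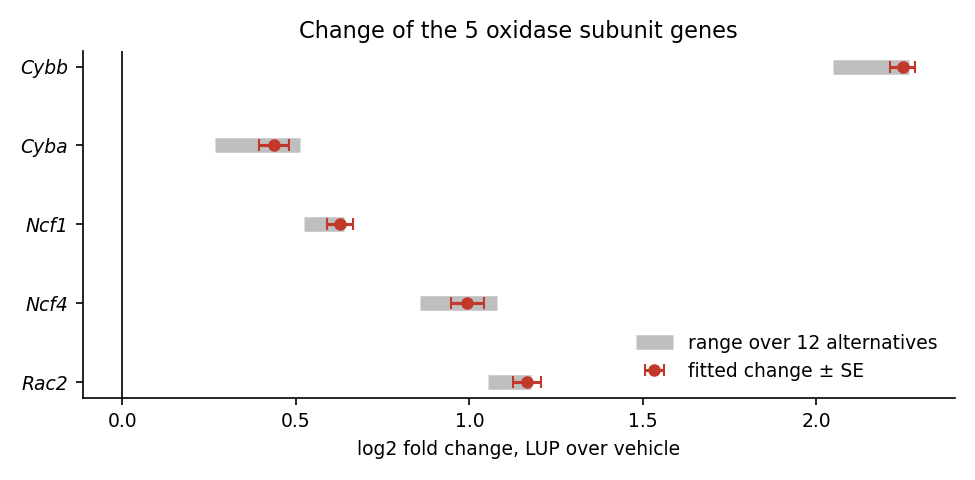
Log2 fold change of LUP over vehicle (horizontal axis) for the 5 subunit genes. Red points are fitted changes with their SE and grey bars span the values under 12 other settings, the widest in relative terms being that of Cyba, from 0.27 to 0.51; every bar lies above 0.

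The order of the levels was not the same in the groups. With LUP it ran Cyba (3085 ± 167 TPM, SD, n = 2), Cybb (984 ± 41.8 TPM), Ncf4 (427 ± 5.32 TPM), Ncf1 (249 ± 8.07 TPM) and Rac2 (249 ± 33.6 TPM), and Ncf1 and Rac2 did not differ beyond their spread. With vehicle it ran Cyba (2446 ± 59.2 TPM), Ncf4 (236 ± 27.03 TPM), Cybb (222 ± 0.438 TPM), Ncf1 (173 ± 4.30 TPM) and Rac2 (116 ± 5.22 TPM). There the libraries of Ncf4 and Cybb overlapped, so the order of those neighbours is not established. Cybb was thus clearly above Ncf4 in TPM with LUP and not separable from it with vehicle.

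The unequal rises changed the balance between subunit mRNAs within a library. There were 2.93 and 3.36 Cyba transcripts per Cybb transcript in the LUP libraries, against 11.2 and 10.9 in the vehicle libraries. The ratio of Ncf1 to Cybb was 0.251 and 0.255 with LUP and 0.764 and 0.794 with vehicle. That of Ncf4 to Cybb was 0.425 and 0.444 with LUP and 1.15 and 0.980 with vehicle, and that of Rac2 to Cybb was 0.269 and 0.236 with LUP and 0.506 and 0.541 with vehicle. In all 4 ratios the LUP libraries lay below the vehicle libraries. A two-sided exact permutation test gave p = 0.333 for each, which is the smallest that 2 libraries against 2 allow.

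**Figure D3:**
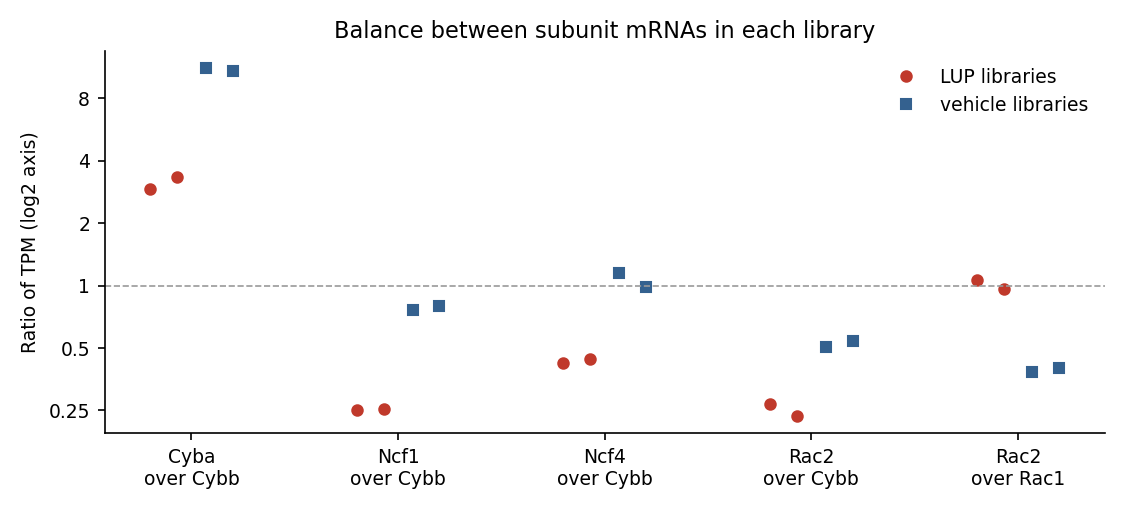
Ratio of TPM between genes (vertical axis, log2 scale) in each LUP library (red circles) and vehicle library (blue squares). The 4 ratios to Cybb are lower in the LUP libraries, as for Cyba over Cybb (2.93 and 3.36 with LUP, 11.2 and 10.9 with vehicle), and Rac2 over Rac1 is higher in them; the dashed line marks equal levels.

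Rac1, the widely expressed relative of Rac2 that also serves the oxidase of macrophages, went the other way. It stood at 257 and 234 TPM with LUP and at 293 and 299 TPM with vehicle, and it fell (log2 -0.17, SE 0.0385, edgeR adjusted p = 0.000906). The ratio of Rac2 to Rac1 was 1.06 and 0.962 in the LUP libraries, against 0.384 and 0.401 in the vehicle libraries (exact permutation p = 0.333, the smallest possible). The mRNAs of the 2 GTPases were therefore about equal in TPM with LUP, while Rac1 exceeded Rac2 with vehicle. Reads that fit both genes are split by estimate, and neither gene had whole counts throughout.

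Of 3 other subunits and partners described here, which include Rac1, 1 rose, 1 fell and 1 was not called, with a median log2 change of 0.11. The shares over all genes tested were 27.1% higher and 23.7% lower. Cybc1, the chaperone Eros that is needed for the gp91phox and p22phox proteins to be made in normal amounts, was at 96.0 and 96.9 TPM with LUP and at 54.1 and 57.1 TPM with vehicle. It rose 1.86-fold (log2 0.90, SE 0.0496, edgeR adjusted p = 1.54e-11). Rap1a, a Ras-related GTPase found with the cytochrome, was at 56.3 and 53.0 TPM with LUP and 57.5 and 53.4 TPM with vehicle, with overlapping groups (log2 0.11, edgeR adjusted p = 0.107). Without vehicle replicate 1 Rap1a was called higher (adjusted p = 0.0476).

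Other NADPH oxidases were nearly absent from the reads. Of 9 genes listed, among them Nox1, Nox3, Nox4 and the dual oxidases Duox1 and Duox2, 8 were below the filter and 6 had no count in any library. Among all 55414 listed genes, 42059 were below the filter and 32874 had no count in any library. A count of 0 in a single library can come from a true level of up to 3 counts. Counts of 0 in every library limit the mean level more tightly than that. Nox4 had 4 and 6 counts in the LUP libraries and 0 and 4 in the vehicle libraries. Noxo1, an organizer related to Ncf1 that serves Nox1, had 10 and 23 counts in the LUP libraries and 29 and 40 in the vehicle libraries. It was called lower (log2 -1.11, SE 0.433, edgeR adjusted p = 0.0406), as were 23.7% of all genes tested. That call was lost under most alternatives, among them DESeq2 (adjusted p = 0.149) and the omission of LUP replicate 1 (log2 -0.59).

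Kinases and lipid enzymes that act upstream of assembly were mixed, with 9 of 18 tested genes higher, 5 lower and a median log2 change of 0.16. Over all genes tested, 27.1% were higher and 23.7% lower. Prkcd, protein kinase C delta, which phosphorylates p47phox, was at 328 and 321 TPM with LUP and at 279 and 294 TPM with vehicle (log2 0.31, edgeR adjusted p = 8.3e-07). Syk, the tyrosine kinase downstream of Fc receptors and Dectin-1, was at 204 and 195.5 TPM with LUP and at 153.5 and 157 TPM with vehicle (log2 0.45, edgeR adjusted p = 2.32e-09). Akt1, another p47phox kinase, fell, with 177 and 176 TPM with LUP and 234 and 244 TPM with vehicle (log2 -0.29, edgeR adjusted p = 2.32e-06). Irak4, a kinase of Toll-like receptor signalling, was at 23.5 and 20.5 TPM with LUP and at 26.0 and 24.5 TPM with vehicle (edgeR adjusted p = 0.441), and quantile normalization called it lower (log2 -0.17, limma adjusted p = 0.0367). Pla2g4a, cytosolic phospholipase A2, which releases arachidonic acid, was chosen after its values were seen and rose 3.51-fold.

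Regulators of Rac split evenly, with 6 of 13 tested genes higher and 6 lower, where 27.1% and 23.7% of all genes tested were. The median log2 change of the list, -0.39, was that of Chn2, a gene with few counts that was not called. GDP-dissociation inhibitors hold Rac in the cytosol. Arhgdib, the blood-cell form, was at 805 and 771 TPM with LUP and at 326 and 337 TPM with vehicle (log2 1.33, edgeR adjusted p = 6.11e-16). Arhgdia, the widespread form, was at 954.3 and 954.8 TPM with LUP and at 947.5 and 940.3 TPM with vehicle (log2 0.12, edgeR adjusted p = 0.00979). That call was lost after quantile normalization, where the change turned to -0.003 on the log2 scale (limma adjusted p = 0.914), with limma on log2(TPM + 1) and log2(TPM + 0.1) (adjusted p = 0.684 and 0.69), with at least 5 TPM (edgeR adjusted p = 0.067) and without vehicle replicate 2 (0.168). Arhgap25, a phagocyte GTPase-activating protein that switches Rac off, fell to 55.1 and 51.9 TPM with LUP, against 166 and 167 TPM with vehicle (log2 -1.45, edgeR adjusted p = 5.78e-16). Chn2, another Rac GTPase-activating protein, was near the floor, with 11 and 9 counts in the LUP libraries and 14 and 11 in the vehicle libraries (edgeR adjusted p = 0.578). Named after their values were seen, Vav1, a Rac exchange factor of blood cells, rose 1.95-fold, and Arhgap15, a Rac GTPase-activating protein, fell 5.80-fold.

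Of 4 genes of charge compensation and oxidase turnover, 1 rose (27.1% of all genes tested did). It was Hvcn1, the voltage-gated proton channel that balances the charge moved by the oxidase, at 658 and 646 TPM with LUP and 433 and 427 TPM with vehicle (log2 0.79, edgeR adjusted p = 7.71e-13). Nrros, which promotes breakdown of the Cybb protein, was at 137.5 and 136.6 TPM with LUP and at 148 and 145 TPM with vehicle (edgeR adjusted p = 0.917), and quantile normalization called it lower (log2 -0.10, limma adjusted p = 0.0344).

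Enzymes that supply the NADPH substrate rose in 4 of 6 cases and fell in 1, with a median log2 change of 1.00. All genes tested rose in 27.1% of cases and fell in 23.7%. Pgd, the second dehydrogenase of the pentose phosphate pathway, was at 1002 and 995 TPM with LUP and at 495 and 501 TPM with vehicle (log2 1.11, edgeR adjusted p = 3.39e-15). G6pdx, the first enzyme of that pathway, was at 251 and 238 TPM with LUP and at 142 and 140.3 TPM with vehicle (log2 0.89, edgeR adjusted p = 3.08e-13). Nadk, the NAD kinase that makes NADP, was at 196 and 189 TPM with LUP and at 89.8 and 91.2 TPM with vehicle (log2 1.16, edgeR adjusted p = 8.27e-15). Pgls, the lactonase between the dehydrogenases, was at 161 and 175 TPM with LUP and at 197 and 189 TPM with vehicle (edgeR adjusted p = 0.127). It was called lower after quantile normalization (limma adjusted p = 0.0121), with at least 5 TPM (edgeR adjusted p = 0.0272) and without LUP replicate 2 (0.00475). Named after their values were seen, the malic enzyme gene Me1 rose 4.69-fold from a low level and the cytosolic isocitrate dehydrogenase gene Idh1 fell 1.42-fold.

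Of 9 tested transcription factors known from work on oxidase promoters, 4 rose and 3 fell (median log2 change 0.05). Among all genes tested, 27.1% rose and 23.7% fell. Spi1, which encodes PU.1, was at 283 and 274 TPM with LUP and at 305 and 298 TPM with vehicle, and it was not called (log2 0.02, edgeR adjusted p = 0.724). Cebpb, a factor of activated macrophages, was at 262 and 214 TPM with LUP and at 151 and 141 TPM with vehicle (log2 0.81, edgeR adjusted p = 1.74e-09). Cebpa, its relative from myeloid differentiation, fell to 170.2 and 165.5 TPM with LUP, against 314 and 305 TPM with vehicle (log2 -0.79, edgeR adjusted p = 2.77e-12). Irf8, an interferon regulatory factor that partners with PU.1, fell to 87.5 and 91.2 TPM with LUP, against 114 and 116 TPM with vehicle (log2 -0.24, edgeR adjusted p = 0.000153). Irf1, which binds the GAAANNGAAA type of element printed for Cybb and Ncf1, was named after its values were seen. It was at 142 and 124 TPM with LUP and at 26.7 and 25.1 TPM with vehicle (log2 2.29, edgeR adjusted p = 2.82e-17). Whether Irf1 acted on Cybb or Ncf1 here was not tested.

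**Figure D4:**
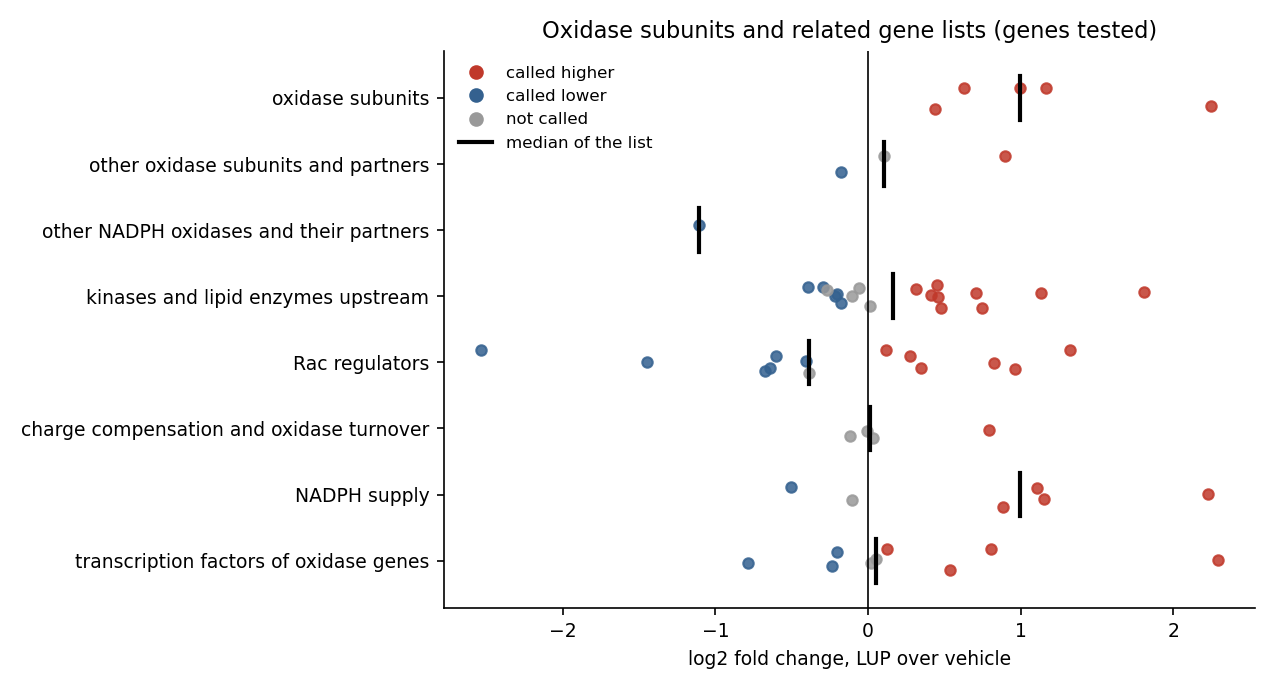
Log2 fold change of LUP over vehicle (horizontal axis) of each tested gene of the oxidase subunits and of 7 related lists (rows). Red points were called higher, blue points lower and grey points not called, black bars are list medians, and vertical scatter within a row carries no value. The 5 subunits and 4 of 6 NADPH supply genes are red, while the Rac regulators hold 6 red and 6 blue points.

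The genes of nearest pattern were found among 7022 others by the root mean square distance between centred log2 CPM over the 4 libraries, so the measure compares changes and not levels. Cybb lay nearest to Tap1, a subunit of the peptide transporter for class I presentation (distance 0.0219), and to Adgre1, which encodes the macrophage marker F4/80 (0.0236). Adgre1 was at 587 and 584 TPM with LUP and at 115 and 123 TPM with vehicle. Rac2 lay nearest to Ly75, the endocytic receptor DEC-205 (0.0115), and to Nadk (0.0116). Ncf1 lay nearest to the phosphatase gene Ptpre (0.0063) and the TNF receptor gene Tnfrsf1a (0.0067), Ncf4 to the ribosome factor gene Eif6 (0.0136) and to Eef1e1 (0.0217), and Cyba to S100a10 (0.0073) and Pdzd11 (0.0088). With 4 libraries in 2 groups, these distances mostly reflect a similar size of change.

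Markers of the labelled cell type were present. All 9 macrophage markers had reads. Of these, 5 (Adgre1, Csf1r, Itgam, Cd14 and Fcgr1) were higher in both LUP libraries, as were 27.6% of all genes tested. The other 4, Lyz2, Cd68, Mertk and Gata6, were lower in both. The summed level of the 9 was 21561 and 21756 TPM with LUP and 27375 and 27005 TPM with vehicle, most of it from Lyz2. Neutrophils also express the oxidase strongly. Of 12 neutrophil markers Ly6g, Mpo and S100a9 were listed at 0 in all libraries, and Elane and Ngp had at most 1 count in any. The summed level of the 12 was 349 and 310 TPM with LUP and 117 and 122 TPM with vehicle, which came mainly from Mmp8, S100a8 and Csf3r. Of the 12, 4 were higher in both LUP libraries, where 27.6% of all genes tested were, and 2, Csf3r and Cxcr2, were lower in both. The share of all genes that were lower in both LUP libraries was not computed. Csf3r was at 43.24 and 40.52 TPM with LUP and at 71.15 and 73.96 TPM with vehicle. Camp was among the 4 higher markers, with 22 and 18 counts in the LUP libraries and 0 in each vehicle library. Retnlg, another of the 4, rested on 1 and 2 counts in the LUP libraries and 0 in each vehicle library. The 5 dendritic cell markers summed to 4.22 and 4.77 TPM with LUP and 0.74 and 0.86 TPM with vehicle. Nearly all of the difference was Ccr7, at 3.89 and 4.43 TPM with LUP and 0.43 and 0.48 TPM with vehicle, while Zbtb46 was lower in both LUP libraries and Siglech was listed at 0. The 7 T and NK cell markers summed to 3.02 and 1.49 TPM with LUP and 0.19 and 0.48 TPM with vehicle. Of the 7, 4 were higher in both LUP libraries, where 27.6% of all genes tested were. All 7 together were near the floor, with 30 and 20 counts in the LUP libraries and 2 and 5 in the vehicle libraries. The 6 mast cell and eosinophil markers summed to 3.17 and 2.36 TPM with LUP and 9.64 and 7.4 TPM with vehicle. Most of that difference was Siglecf, with 18 and 34 counts in the LUP libraries and 181 and 183 in the vehicle libraries. The 6 B cell markers summed to at most 6.25 TPM and the 6 mesothelial and fibroblast markers to at most 93.9 TPM in a library. The part of such cells in the subunit levels was not tested. The share of counts from the mitochondrial genome was 1.10% and 1.05% in LUP libraries and 1.14% in each vehicle library.

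In the authors' deposited table the same genes appear with ratios of vehicle over LUP, so that a negative log2 value there means higher with LUP. The log2 values of the authors' deposited table were -2.25 for Cybb, -1.17 for Rac2, -0.998 for Ncf4, -0.63 for Ncf1 and -0.44 for Cyba.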

How the data were processed

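RNA of 2 LUP and 2 vehicle libraries was sequenced as paired-end Illumina reads from a TruSeq RNA kit, per the labels' protocols, and they do not state whether strand was kept. The expected counts per gene were estimated by the authors and deposited without scaling between libraries. The TPM values, per library and as group means, are the authors' own as well. The authors also deposited a ratio of vehicle over LUP with its log2, and a p-value with its adjusted form from a test that the sources used here do not name. The submitters' processing notes name fastp, HISAT2, StringTie and RSEM with no version or role. No source used here names the genome build, and the promoter coordinates belong to RefSeq's build alone.

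After rounding to whole numbers, the expected counts were tested over the whole table with edgeR 4.0.16 (quasi-likelihood, TMM, default filter on low counts, treatment as the only term) in R 4.3.3, with Benjamini-Hochberg adjustment over all 13355 genes tested. SEs are the log2 change divided by the square root of the F statistic. Levels are deposited TPM, so a fitted fold can differ from a ratio of TPM. The alternatives used DESeq2 1.42.0 and limma 3.58.1, other scalings and filters, a replicate block and the omission of each library. The members and gene lists were chosen with earlier results of these data known. From each list up to 3 called genes and 1 tested gene that was not called were named, by highest mean TPM, with all genes of the list of other subunits; some genes of these lists are not reported here. The nearest patterns are the 2 closest genes with at least 10 TPM on average and a gene symbol that is not a predicted or clone name. Depth sets only counting error, which is small for the subunits.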

Additional observations from a re-analysis of the deposited data

How the results depend on the processing

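All 60 values of the 5 subunit genes (12 alternatives each) kept their direction and their call, with log2 changes from 2.05 to 2.27 for Cybb, 0.27 to 0.51 for Cyba, 0.52 to 0.64 for Ncf1, 0.86 to 1.08 for Ncf4 and 1.05 to 1.18 for Rac2, and all 30 alternative ratios between subunits kept their direction. Of 330 values of other named genes, 301 kept direction and call. Reversals concerned only genes near 0: Spi1 was at -0.048 (quantile normalization), -0.117 (both limma fits on TPM), -0.0215 (at least 5 TPM), and from -0.0421 to 0.0886 over the omissions of 1 library, Rap1a at -0.0195 and -0.0198 (limma on log2(TPM + 1) and log2(TPM + 0.1)), Arhgdia at -0.00337 (quantile normalization), and Nrros at 0.00138 (no filter) and from -0.0311 to 0.0213 over the omissions. The list of other oxidases held 0 lower genes under quantile normalization, DESeq2 and both limma fits. With at least 5 TPM Noxo1, the only gene of that list tested in the main fit, fell below the filter, so no call was possible. Over the omissions of 1 library the log2 change of Noxo1 ranged from -1.87 to -0.59. The turnover list held 2 lower genes under quantile normalization and 1 with at least 5 TPM, and NADPH supply 2 lower genes under both and 1 to 2 among the omissions. The other subunits and partners held 1 to 2 higher genes among the omissions. Transcription factors of oxidase genes held 3 higher genes under quantile normalization, the DESeq2 test, both limma fits, at least 5 TPM and the replicate block. That list also held fewer higher genes than the main fit under most omissions of 1 library. Both limma fits on TPM called 3 Rac regulators higher, and over all genes 1852 and 1886 higher. The cause was not tested. Libraries with the same replicate number shared no visible deviation (correlation of deviations -0.066), which cannot show whether they were paired by animal or batch. With the replicate block 3533 genes were higher and 3073 lower, and the same 5 subunits were called higher. Depth limits the other oxidases, which rest on few counts.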

Other observations

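S100a8 and S100a9 encode the subunits of calprotectin, which is known to bind the oxidase in neutrophils. S100a8 had 333 and 302 counts with LUP and 86 and 111 counts with vehicle, while S100a9 was listed at 0 in all 4 libraries. Mmp8, a collagenase gene best known from neutrophils, had 7676 and 6308 counts with LUP and 468 and 491 counts with vehicle. These genes were chosen after their values were seen, and no test was made. Csf3r and Cxcr2, which are also neutrophil markers, were lower in both LUP libraries.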
